A study of Mus musculus with 3 samples.

Results

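The cathepsins are the proteases of the lysosome, the acidic compartment in which a macrophage degrades what it has taken up. The genes described here are the 9 cathepsin genes Ctsa, Ctsb, Ctsc, Ctsd, Ctsh, Ctsk, Ctsl, Ctss and Ctsz together with Gm49369, a gene model that shares exons with Ctsd, which makes 10 of the 55536 annotated genes in the deposited tables. They were chosen by name, and the 10 were all found in the tables. The RNA came from C57BL/6J bone marrow-derived macrophages (BMDM, which differentiate from marrow precursors in a dish) kept for 50 min with lipid A at 100 ng/ml, the lipid part of lipopolysaccharide that Toll-like receptor 4 senses. Total RNA of the cytosolic fraction was depleted of ribosomal RNA and sequenced in 3 libraries, replicates 1 to 3 of this 1 group. The labels give the libraries separate biosamples and the same donor, and sex and age were not collected. They do not say whether separate animals or cultures were used, so differences between the libraries may be technical variation. The p-values describe only how far a gene varies between these samples beyond the spread fitted over all tested genes in them. No unstimulated sample was analysed here, and no value is a response to lipid A.

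Most cathepsins are made as inactive precursors, carried to the lysosome by mannose 6-phosphate receptors, and activated there when a propeptide is removed at low pH. They fall into 3 catalytic classes. Ctsb, Ctsc, Ctsh, Ctsk, Ctsl, Ctss and Ctsz encode cysteine proteases of the papain type, Ctsd encodes an aspartic protease related to pepsin, and Ctsa encodes a serine carboxypeptidase. In macrophages they digest phagocytosed protein, trim antigens for MHC class II, and activate other proteases.

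Reads can be split wrongly between genes that share sequence, because they look alike or because their exons overlap. The coding sequence around the catalytic residue is shown for 3 closely related cysteine cathepsins and for Ctsb, the most abundant of that class. It is also shown for 1 gene of each other class. The sequences were read from GENCODE M21 transcripts and run 5′ to 3′ on the coding strand, with the codon of the catalytic residue in capitals (a cysteine in the first 4 lines, the first aspartate of Ctsd, the serine of Ctsa).
Ctsk: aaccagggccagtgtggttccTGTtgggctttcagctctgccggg
Ctsl: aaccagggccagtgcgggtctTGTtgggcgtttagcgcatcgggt
Ctss: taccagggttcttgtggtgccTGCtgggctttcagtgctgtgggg
Ctsb: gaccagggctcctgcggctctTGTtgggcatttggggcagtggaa
Ctsd: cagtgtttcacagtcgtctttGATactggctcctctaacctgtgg
Ctsa: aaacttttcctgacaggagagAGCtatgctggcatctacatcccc
Over this window of 45 bases, Ctsk and Ctsl share 35 bases, Ctsk and Ctss 34, Ctsb and Ctsl 33, Ctsb and Ctss 30, and both Ctsb and Ctsk and Ctsl and Ctss 28. The encoded precursors of Ctsk and Ctss are 58.3% identical over 319 aligned residues, the highest value among the 21 pairs of the 7 cysteine cathepsins. The median of these pairs is 36.1%, and the lowest value is 31.0%, for Ctsb and Ctsl. Identity was counted over aligned residues without gaps. Across classes, the highest value by this count was 38.4% for Ctsd and Ctsl, over 237 residues. The lower values among the cysteine cathepsins thus overlap those of pairs across classes. Since gaps are left out, this count cannot show how closely such pairs are related. The longest exact run shared by any pair of the 9 mRNAs is 17 bases. No window of 50 bases of the full mRNA of Ctsc, Ctsh, Ctsk, Ctsl, Ctss or Ctsz occurred in a transcript of another gene. For Ctsd, 760 of 2078 such windows (36.6%) also occur in Gm49369, and for Ctsb, 725 of 4694 (15.4%) occur on the opposite strand in Fdft1, the squalene synthase gene that its 3′ end overlaps. For Ctsa, 538 of 2485 windows (21.6%) occur on the opposite strand in Neurl2 or Pltp. The strand setting of the counting is not given in the sources used here, so how reads in those stretches were assigned is not known. The deposited posterior SD of the count was 30.67, 24.38 and 24.24 for Ctsa and 30.67, 24.39 and 24.17 for Pltp. It was 6.76, 4.54 and 6.32 for Ctsb and 6.76, 4.54 and 6.33 for Fdft1. The split between these genes was not tested against the reads. Pltp, which encodes a phospholipid transfer protein, had 19391, 20249 and 17874 counts, while Neurl2 had 112, 168 and 145 counts and Fdft1 908, 443 and 696.

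The libraries held 33044910, 36769402 and 36522216 expected counts (estimated reads per gene) on annotated genes. Levels are given in TPM, the abundance per transcript length relative to all RNA of the library, as the mean ± SD over the 3 libraries. Protein-coding genes took 38.4%, 26.6% and 34.8% of TPM, which lowers TPM values of mRNA in library 2, and the libraries were therefore compared by log2 CPM (counts scaled to library size by edgeR). All 11 macrophage markers reached 1 TPM in each library, with summed levels of 11063, 7561 and 10596 TPM. None of the 8 T and NK cell markers or the 6 fibroblast markers did. Of 13 neutrophil and mast cell markers, S100a8 (11.9 ± 0.376 TPM) and S100a9 (19.8 ± 2.41 TPM) did. Of the same 13, 3 had a count of 0 in each library, while others had low counts, such as Kit (179, 72 and 122) and Ltf (65, 116 and 36). A count of 0 in each library was also found for 4 T and NK cell markers and 2 fibroblast markers. None of the 8 B cell and dendritic markers reached 1 TPM in each library, and 1 of them had a count of 0 in each.

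Cathepsin mRNA was abundant and its composition was steep. The 9 cathepsins together made up 3.08% ± 0.101 of protein-coding TPM (n = 3; 3.14%, 3.13% and 2.96%), and Ctsd and Ctsb alone made up 2.31% ± 0.127. The authors deposited 2 quantifications of each library, the first in the table layout of RSEM, which is used unless stated, and the second in that of kallisto. In the second the family took 3.16% ± 0.137. In each library of the first quantification 8 of the 9 genes stood above 100 TPM, and Ctsk was the exception at under 2 TPM. TPM were lower in the second, where 4 genes (Ctsd, Ctsb, Ctss and Ctsz) stood above 100 TPM in each library, and where Ctsd, for example, was at 1455 ± 562 TPM and Ctsh at 54.9 ± 24.7 TPM. In the first, the highest mean level, that of Ctsd, was 2831 times the lowest, that of Ctsk.

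**Figure D1:**
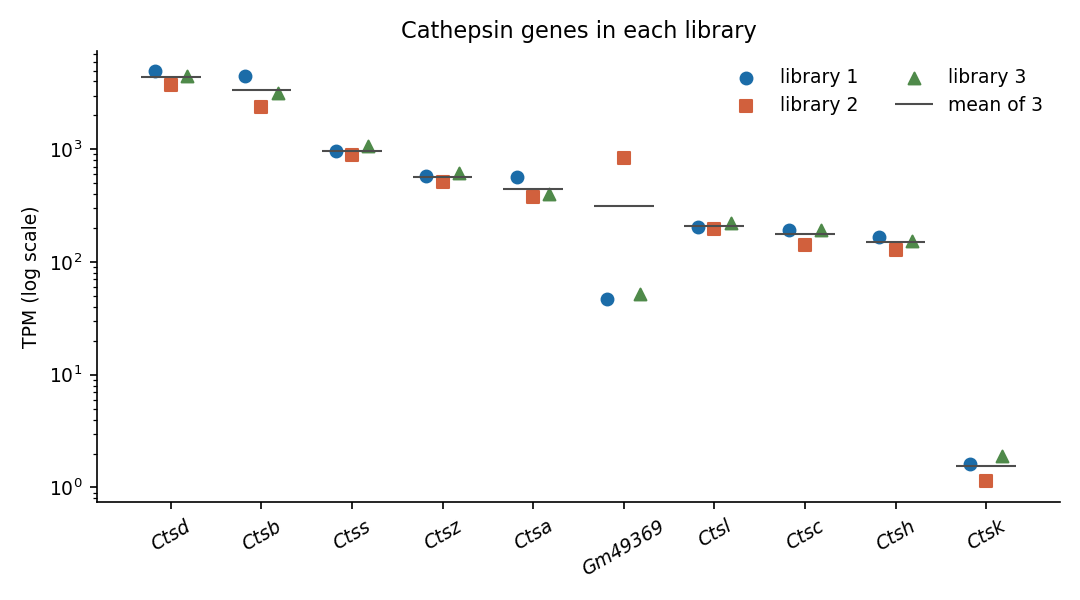
TPM on a log axis for each of the 10 genes, ordered by mean, with 1 point per library and a bar at the mean of 3 libraries. Ctsd and Ctsb stand at 2364 TPM or more in each library, Ctsk stays under 2 TPM, and for Gm49369 library 2 lies far above the other libraries.

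Ctsd, the aspartic protease, stood at 4927, 3713 and 4468 TPM in libraries 1, 2 and 3 (4369 ± 613; ENSMUSG00000007891.16, mm10 chromosome 7, 142375911 to 142388038, minus strand). It ranked 5 among protein-coding genes by mean TPM. Library 2 was the lowest in TPM but not in log2 CPM, where the values were 13.53, 13.55 and 13.47. The range of 0.09 was the smallest of the 9 cathepsins.

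Ctsb, a cysteine endopeptidase that can also trim the carboxyl end of peptides, stood at 4448, 2364 and 3166 TPM (3326 ± 1051; chromosome 14, 63122462 to 63145923, plus strand) and ranked 8. By counts Ctsb was ahead of Ctsd, with 645287 ± 44240 against 414542 ± 19771 counts, since its mRNA of 4743 bases is longer than the 2127 bases of Ctsd. Within a library the log2 ratio of Ctsd to Ctsb in TPM was 0.15, 0.65 and 0.50 (mean 0.43 ± 0.26), higher for Ctsd in 3 of 3 libraries. In the second quantification it was -0.09, 0.26 and 0.16 (0.11 ± 0.18), with Ctsb ahead in library 1. The pair thus did not hold its order in every library of both quantifications.

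Ctss, which cleaves the invariant chain of MHC class II and stays active at neutral pH, stood at 961, 882 and 1060 TPM (968 ± 89.1; chromosome 3, 95526786 to 95556403, plus strand). Ctsz, a carboxypeptidase of the papain class, stood at 581, 512 and 622 TPM (572 ± 55.3; chromosome 2, 174427493 to 174439039, minus strand). Ctsa, which also shields the sialidase Neu1 and the galactosidase Glb1 in a lysosomal complex, stood at 564, 378 and 405 TPM (449 ± 100.3; chromosome 2, 164832873 to 164841032, plus strand). Ctsz was above Ctsa by a log2 ratio of 0.37 ± 0.29 in the first quantification, and the order turned in library 1 of the second (-0.02).

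Ctsl, an endopeptidase with a broad range of substrates, stood at 204, 197 and 224 TPM (209 ± 13.7; chromosome 13, 64359337 to 64370890, minus strand). Ctsc, which activates the serine proteases of leukocyte granules by removing dipeptides, stood at 194, 142 and 191 TPM (176 ± 29.2; chromosome 7, 88278085 to 88310888, plus strand). Ctsh, an aminopeptidase, stood at 166, 128 and 155 TPM (150 ± 19.3; chromosome 9, 90054152 to 90076089, plus strand). In the deposited TPM the order within each library was Ctsl, Ctsc, Ctsh, with a log2 ratio of 0.26 ± 0.20 between Ctsl and Ctsc and of 0.22 ± 0.08 between Ctsc and Ctsh. Over the 3 libraries the TPM ranges of Ctsc and Ctsh overlapped. With all counts assigned to the full mRNAs Ctsc was above Ctsl in libraries 1 and 3, so the order of this pair depended on how transcripts were weighed.

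Ctsk, the collagen-degrading protease of osteoclasts, stood at 1.61, 1.13 and 1.89 TPM (1.54 ± 0.384; chromosome 3, 95499256 to 95509362, plus strand) from 88, 92 and 123 counts. It lies beside Ctss on chromosome 3, and its level was far below that of Ctss although the encoded proteins are the closest pair of the family. Among the 9 osteoclast markers, 4 reached 1 TPM in each library, led by the proton pump subunit Atp6v0d2 (77.6 ± 3.79 TPM), the transcription factor Nfatc1 (14.8 ± 2.51) and the integrin Itgb3 (5.14 ± 1.59). Calcr and Oscar had a count of 0 in each library.

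Of the 8 pairs of neighbours in the order Ctsd, Ctsb, Ctss, Ctsz, Ctsa, Ctsl, Ctsc, Ctsh and Ctsk, 5 differed by more than 2 SD of their log2 ratio. The other 3 pairs, Ctsd with Ctsb, Ctsz with Ctsa and Ctsl with Ctsc, did not, and the same 3 pairs were below 2 SD in the second quantification. With 3 libraries an exact two-sided sign-flip permutation test cannot go below p = 0.25, so no p is given for these ratios.

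None of the 9 cathepsins was called as varying between the libraries beyond the spread of genes of like level. The test below sets each gene against a spread fitted over all tested genes of these same 3 libraries. Variation of a size common to most genes is therefore not called, and an uncalled gene is not shown to be equal between libraries. In an edgeR goodness-of-fit test of each gene over the 3 libraries, 203 of 12231 tested genes were called at an adjusted p under 0.05, which is 1.66% of them, and of the 10 genes of interest, all tested, 1 was called. That gene was Gm49369. The 9 cathepsins had unadjusted p-values from 0.347 (Ctsl) to 0.964 (Ctsd) by edgeR, each with an adjusted p of 1, and 0 were under 0.05 before adjustment. Their log2 CPM ranged over 0.09 (Ctsd) to 0.41 (Ctsl) between the highest and lowest library, with a median range of 0.29 against 0.28 over all tested genes. Counts were also simulated, with the moved genes drawn at random from all tested genes. The test called 17.2% of genes moved 2-fold in 1 library and 90.8% of those moved 4-fold. Over tested genes of all levels, changes near 2-fold would thus often be missed. The share was not computed at the counts of the cathepsins.

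**Figure D2:**
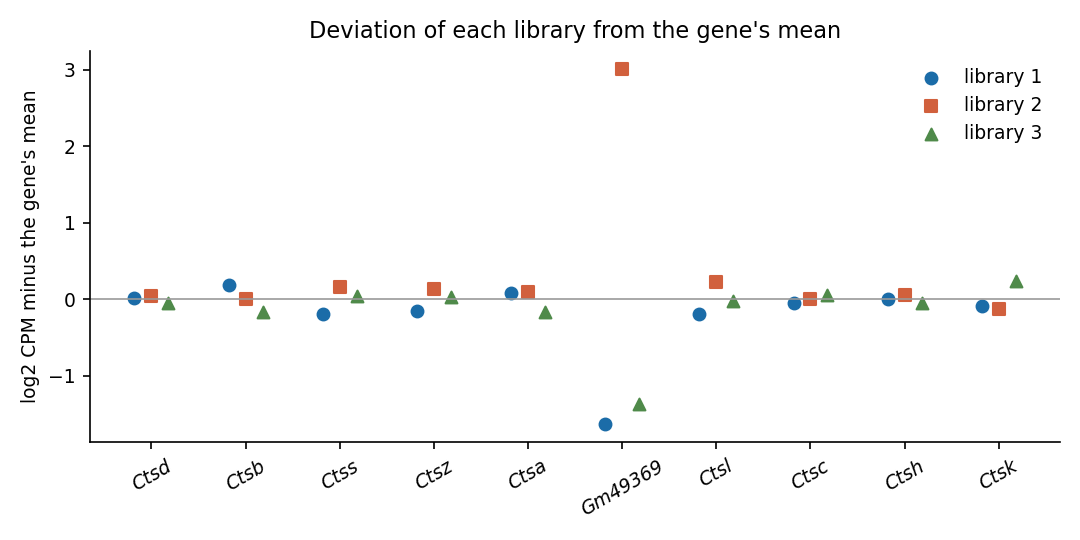
Log2 CPM of each library minus the gene's mean over the 3 libraries, for the 10 genes. The 9 cathepsins stay within 0.23 of their mean, while Gm49369 lies 3.01 above its mean in library 2 and 1.64 and 1.38 below it in libraries 1 and 3.

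The library with the highest value differed from gene to gene. Ctsl had 8.84, 9.25 and 9.00 log2 CPM, and Ctss 10.44, 10.79 and 10.68, both lowest in library 1 and highest in library 2. Ctsb had 14.33, 14.15 and 13.98, highest in library 1 and lowest in library 3. Of the 9 cathepsins, 6 were highest in library 2, 2 in library 3 and 1 in library 1. Over all tested genes, 36.8%, 31.2% and 32% were highest in libraries 1, 2 and 3. The lowest value was in library 1 for 4 cathepsins, in library 3 for 4 and in library 2 for 1. Among the 12231 tested genes, 4684, 3903 and 3644 were lowest in libraries 1, 2 and 3.

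Gm49369 is annotated as a readthrough transcript that starts within Ctsd and continues into an exon of the neighbouring gene Ifitm10 (ENSMUSG00000110040.1, chromosome 7, 142371096 to 142382667, minus strand). Of the 833 bases of its transcript Gm49369-201, 670 lie in exons of Ctsd and the other 163 (142371148 to 142371310) in an exon of Ifitm10. Gm49369-201 parts from the main Ctsd mRNA, Ctsd-202, where the same exon is joined to the last exon of Ctsd or to the distant one. The 30 bases before and after that junction are shown, with those after it in capitals; the shared exon ends at 142376833, and the next one begins at 142376738 in Ctsd and at 142371310 in Gm49369 (mm10, minus strand).
Ctsd-202: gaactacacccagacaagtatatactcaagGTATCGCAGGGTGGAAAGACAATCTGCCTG
Gm49369-201: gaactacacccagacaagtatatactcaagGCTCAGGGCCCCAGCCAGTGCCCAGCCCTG
Only reads that reach the capitals of the lower sequence, or the bases beyond them, belong to Gm49369-201 and not to Ctsd-202. The annotated Gm49369-201 begins at 142382667, downstream of the Ctsd exon at 142383418 to 142383541. That exon holds the codon of the first catalytic aspartate of Ctsd shown above. All 833 bases of the model are annotated as coding, so where the RNA itself starts is not known.

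The count given to Gm49369 differed sharply between libraries and between quantifications. In the first it had 1205, 32571 and 1610 counts, which was 0.306%, 7.03% and 0.382% of the sum of Ctsd and Gm49369. Library 2 stood apart, at 27.0 times library 1 and 20.2 times library 3 in counts not scaled to library size. Gm49369 had log2 CPM of 5.18, 9.83 and 5.44 and an edgeR adjusted p of 2.588e-75, the lowest p of all genes tested. In the second quantification it had 14216, 4935 and 2714 counts (3.03%, 1.02% and 0.601%), highest in library 1, again called by edgeR (adjusted p = 6.06e-16). The libraries therefore come in a different order in the 2 quantifications of the same libraries. Without library 2, Gm49369 was not called in the first quantification (edgeR adjusted p = 1).

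The sum of both genes did not show this difference. Ctsd and Gm49369 together had 393749, 463399 and 421865 counts, a log2 CPM of 13.54, 13.62 and 13.50, and the range was 0.13 in the first quantification and 0.12 in the second. With the counts of both genes summed, the locus had an edgeR p of 0.831 and none of the 9 cathepsins was called. Ifitm10 itself, whose exon the readthrough model uses, had 3, 5 and 3.01 counts. The posterior SD of the count, which the authors deposited, was the same for Ctsd and Gm49369 in each library (154, 493 and 226 counts). The split of reads between the genes was not tested against the reads.

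**Figure D3:**
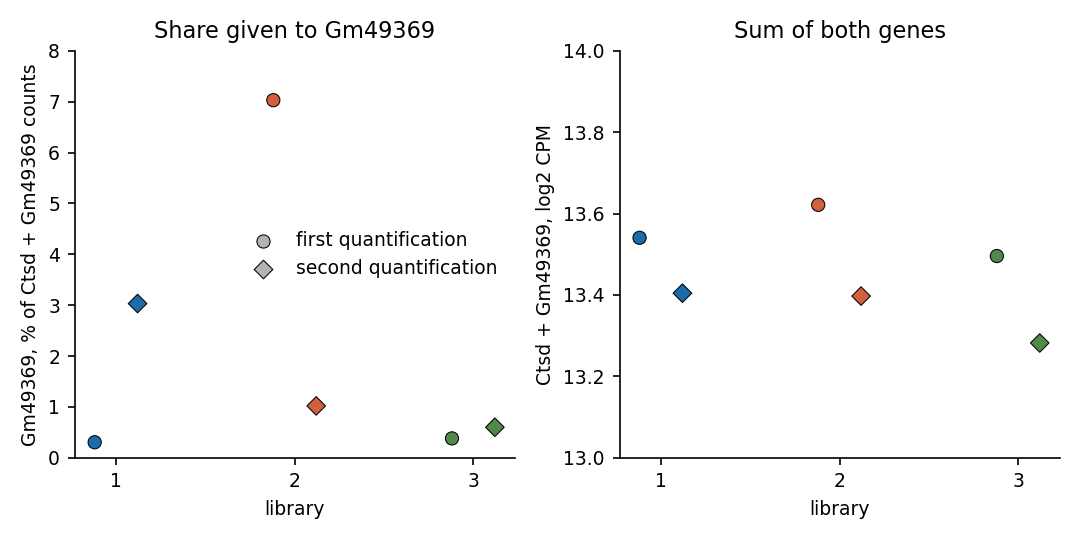
Left, the share of the summed Ctsd and Gm49369 counts given to Gm49369 in each library, as circles for the first quantification and diamonds for the second; right, log2 CPM of the sum, on an axis from 13 to 14. The share is highest in library 2 (7.03%) in one quantification and in library 1 (3.03%) in the other, while the sum spans 0.13 and 0.12.

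The 9 cathepsin genes have 49 annotated transcripts, and the transcript with the highest mean share of a gene's TPM was the same in both quantifications for 9 of 9. To see how much of each gene's level lies in transcripts annotated to encode the catalytic residue, the TPM of transcripts whose annotated coding sequence holds the codon of the catalytic residue in frame was summed. This share was 100% for Ctsk, Ctss and Ctsz, 99.8% ± 0.150 for Ctsd and 98.6% ± 1.63 for Ctsl. It was 84.8% ± 9.42 for Ctsb, 65.6% ± 3.75 for Ctsa, 62.3% ± 4.74 for Ctsh and 37.5% ± 4.69 for Ctsc. In the second quantification it was 89.3% ± 1.15 for Ctsl, 66.2% ± 2.51 for Ctsb, 70.6% ± 6.57 for Ctsa, 73.0% ± 3.26 for Ctsh and 33.8% ± 3.16 for Ctsc. Ctsc was the lowest in both, and the order of Ctsb, Ctsa and Ctsh differed between them. These are shares of TPM, in which short transcripts weigh more than in counts. In library 1 of the first quantification Ctsa-210, a model of 659 bases without the codon, had 3354 counts against 29097 for Ctsa-202. Ctsb-202, a model of 801 bases that holds no annotated coding sequence, had 24447 against 662504 for Ctsb-201.

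**Figure D4:**
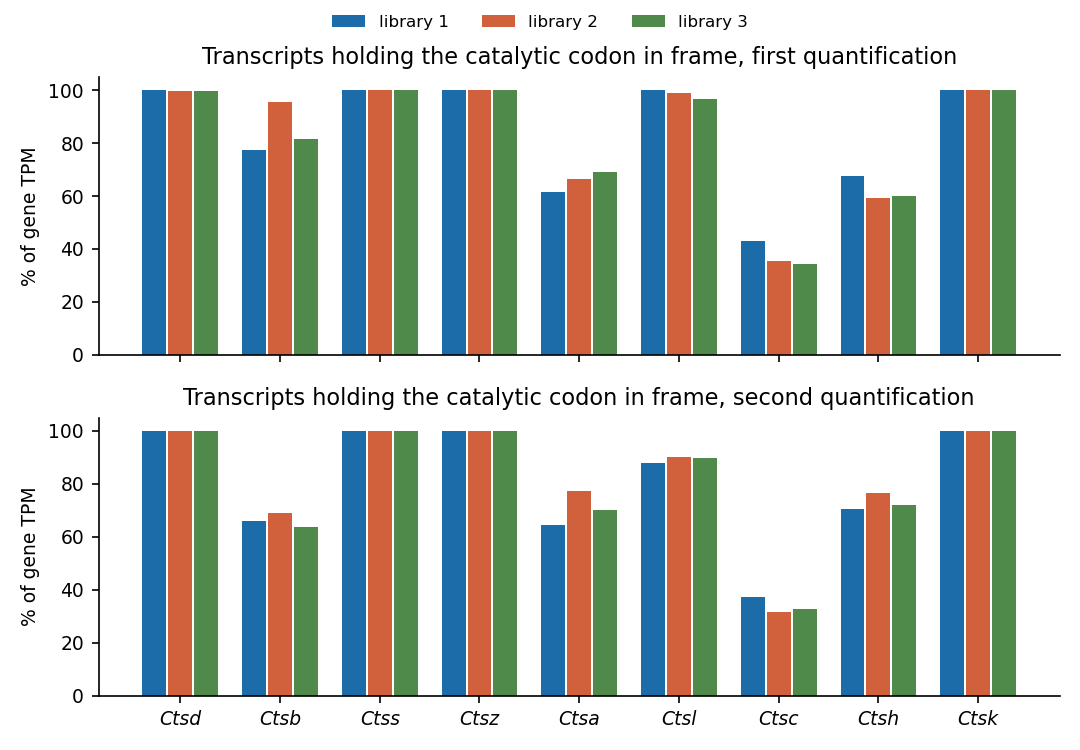
Percent of each gene's TPM in transcripts whose annotated coding sequence holds the catalytic codon in frame, by library (bars from 0), in the first (top) and the second (bottom) quantification. Ctsc is below 50% in each library of both.

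Ctsc was the only cathepsin whose leading transcript lacked the catalytic codon. Ctsc-203 leaves the full mRNA after an early exon, takes 2 exons that lie within an intron (88286894 to 88286978 and 88288650 to 88291397), and has 411 coding bases against 1386 in Ctsc-201. The 30 bases on each side of the point where they part are shown, with the bases after it in capitals; the shared exon ends at 88281532 (chromosome 7, plus strand).
Ctsc-203: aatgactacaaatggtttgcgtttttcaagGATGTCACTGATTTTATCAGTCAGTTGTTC
Ctsc-201: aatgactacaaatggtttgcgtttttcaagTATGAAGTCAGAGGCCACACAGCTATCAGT
Ctsc-203 took 53.3%, 61.4% and 63.9% of Ctsc TPM and Ctsc-201 took 42.8%, 35.3% and 34.2%. The ranges of the transcripts do not overlap, and Ctsc-203 led in each library. In the second quantification Ctsc-203 took 49.7%, 56.1% and 61.1%. In counts Ctsc-203 had 13170, 16540 and 18271, and most of its 3220 bases (2833) are not in Ctsc-201.

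Part of the Ctsh level was assigned to an mRNA annotated for nonsense-mediated decay. This mRNA, Ctsh-202, leaves out an exon of 106 bases (chromosome 9, 90061519 to 90061624), a length that is not a multiple of 3. All 1238 bases of Ctsh-202 lie in exons of Ctsh-201. Only reads across the junction that skips the exon thus belong to Ctsh-202 and not to Ctsh-201. The exon is shown in capitals with 21 bases of its neighbours in Ctsh-201.
Ctsh-201: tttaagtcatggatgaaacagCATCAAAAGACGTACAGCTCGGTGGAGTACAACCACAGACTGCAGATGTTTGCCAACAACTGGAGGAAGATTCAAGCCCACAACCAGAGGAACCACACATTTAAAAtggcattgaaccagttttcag
Ctsh-202 took 31.3%, 38.8% and 38.3% of Ctsh TPM in the first quantification and 26.7%, 19.3% and 24.8% in the second. It was lowest in library 1 in the first and lowest in library 2 in the second, so no library can be called low.

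Ctsa-210, which is annotated as coding but lacks the exon with the catalytic serine codon (chromosome 2, 164835156 to 164835311, 156 bases), took 32.4%, 27.7% and 19.8% of Ctsa TPM, and 27.2%, 15.4% and 17.0% in the second quantification. It is short, at 659 bases, so it carried 3354, 2887 and 1828 counts against 29097, 33466 and 29903 for the full mRNA Ctsa-202. Library 1 was the highest in both quantifications.

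The transcript of Ctsb that retains intron sequence depended on the quantification. Ctsb-202 has 801 bases, of which 710 lie in exons of Ctsb-201, and it begins with 90 bases of an intron (chromosome 14, 63135518 to 63135607, plus strand), shown in capitals before the exon.
Ctsb-202: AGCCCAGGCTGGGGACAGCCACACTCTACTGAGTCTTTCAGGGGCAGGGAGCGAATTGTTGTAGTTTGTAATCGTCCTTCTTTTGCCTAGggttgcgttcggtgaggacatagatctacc
It took 22.5%, 4.38% and 18.4% of Ctsb TPM in the first quantification, where library 2 was low, and 34.1%, 31.0% and 36.1% in the second, where the libraries lay close together. Since it is short, its few counts weigh on the gene's TPM. With all counts of each cathepsin assigned to its full mRNA, an alternative chosen after seeing the data, Ctsb stood at 3572, 2270 and 2659 TPM (2834 ± 668), and Ctsd was above it by a log2 ratio of 0.61 ± 0.15. Ctsa then stood at 324 ± 54.9 TPM, below its deposited 449, and Ctsz was above it by 0.83 ± 0.22. Ctsc stood at 221, 166 and 227 TPM and Ctsl at 205, 196 and 217 TPM, so their order turned in libraries 1 and 3 (log2 ratio of Ctsl to Ctsc 0.02 ± 0.19).

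Ctsd-201 and Ctsd-202 differ within the coding sequence by 18 bases that Ctsd-202 keeps at the end of an exon (chromosome 7, 142377333 to 142377350, minus strand), shown in capitals with 24 bases on each side.
Ctsd-202: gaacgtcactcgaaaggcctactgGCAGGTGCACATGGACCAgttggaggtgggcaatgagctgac
Ctsd-201: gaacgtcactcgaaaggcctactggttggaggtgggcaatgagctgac
Ctsd-201, the shorter form, took 13.9%, 33.8% and 12.5% of Ctsd TPM in the first quantification and 9.57%, 0.329% and 0.497% in the second. Library 2 was the highest in the first and library 1 in the second, the same libraries in which Gm49369 was highest.

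Ctss gave the steadiest pair of transcripts. They differ in the coding sequence by 3 bases at an exon start (chromosome 3, 95529434 to 95529436, plus strand), shown in capitals.
Ctss-201: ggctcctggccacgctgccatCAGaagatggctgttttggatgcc
Ctss-202: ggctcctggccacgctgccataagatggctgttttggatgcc
Ctss-201, the form with the 3 bases, took 14.2%, 14.6% and 13.5% of Ctss TPM in the first quantification and 13.6%, 14.9% and 13.4% in the second. Over both quantifications its share thus stayed between 13.4% and 14.9%.

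Promoters, here 250 bases before to 50 after a RefSeq start (GRCm38.p6), were matched for 7 of the 10 genes, with 8 starts in all. They were searched on both strands for CACGTG and for TCACGTGA, which contains it and is a form known to be bound by TFEB and its relatives, transcription factors of lysosomal genes. GAGGAAGT, a form known to be bound by the myeloid factor PU.1, and the core promoter motif TATAAA were searched too. The motif CACGTG was found at 1 of the 2 starts of Ctsa and at those of Ctsd and Ctsl, which makes 3 of 8 starts, and in 7.15% of 32851 promoters of this length. TCACGTGA was found at 2 of 8 starts (the same Ctsa start, and Ctsd) and in 0.974% of promoters, GAGGAAGT at 2 of 8 (Ctsc and Ctss) and in 3.20%, and TATAAA at 1 of 8 (Ctss) and in 13.6%. The Ctsa start with the motifs is not that of the leading mRNA Ctsa-202, since the motifs begin 887 bases after it. The stretch of the Ctsd promoter with TCACGTGA in capitals (chr7:142387894-142387951, minus strand) and that of a Ctsa start with its 2 copies (chr2:164833760-164833784, plus strand) are shown.
Ctsd: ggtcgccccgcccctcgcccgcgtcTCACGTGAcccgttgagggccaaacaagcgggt
Ctsa: TCACGTGAtgcagatgcTCACGTGA
A match is a description of these letters and not a site of binding. Of the 5 transcription factor genes listed for lysosomal programmes, all 5 were above 1 TPM in each library, with Tfe3 at 38.5 ± 8.59 TPM, Tfec at 32.5 ± 9.22 and Mitf at 14.1 ± 2.66, and 0 of the 5 were called between libraries.

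The proteins that activate, carry, bind and inhibit cathepsins were followed in lists. Among 17 other cathepsins and lysosomal endoproteases, 5 reached 1 TPM in each library, and 0 of the 6 that could be tested were called, beside 1.66% of all tested genes. In lists this small that share comes to less than 1 gene. Legumain (Lgmn), which cleaves cathepsin precursors, led at 699, 555 and 583 TPM (613 ± 76.3), followed by the tripeptidyl peptidase Tpp1 (98.4 ± 24.9 TPM) and Ctso (11.3 ± 2.48 TPM). Cts3, Cts6, Cts7, Cts8, Ctsj, Ctsm, Ctsq, Ctsr and Ctsll3, most of them known as placental cathepsins of the mouse, had a count of 0 in each library, which allows up to 0.0908, 0.0816 and 0.0821 CPM (3 counts, counting error only). Ctsg and Ctsw, cathepsins of neutrophil granules and cytotoxic lymphocytes, had 6, 8 and 1 counts and 1 count in each library.

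**Figure D5:**
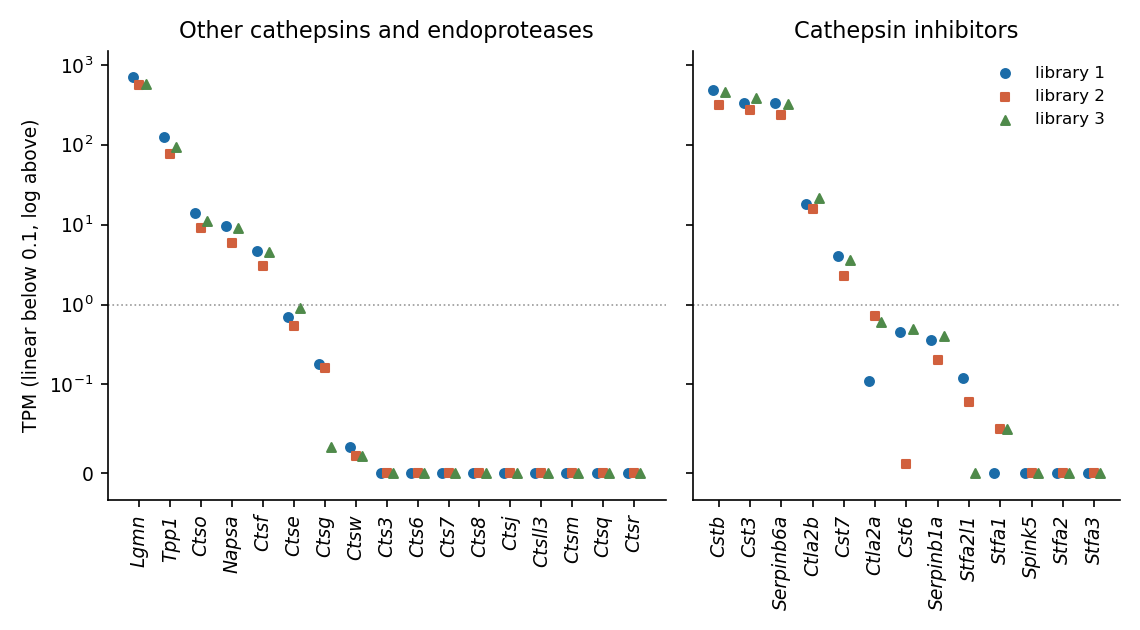
TPM of the other cathepsins and lysosomal endoproteases (left) and of the cathepsin inhibitors (right), 1 point per library, on an axis that is linear below 0.1 and logarithmic above. The dotted line marks 1 TPM, above which 5 genes of each list lie in all libraries.

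Of 13 inhibitors, 5 reached 1 TPM in each library, and 0 of the 6 tested were called. They were led by the cytosolic cystatin B (Cstb, 421 ± 91.1 TPM), the secreted cystatin C (Cst3, 330 ± 56.8 TPM) and the serpin Serpinb6a (298 ± 55.7 TPM). Stfa2, Stfa3 and Spink5 had a count of 0 in each library. The 13 genes that sort lysosomal enzymes all reached 1 TPM, with a median of 23.9 TPM and 0 of 13 called; the highest were the small mannose 6-phosphate receptor M6pr (87.8 ± 12.8 TPM) and the retromer subunits Vps26a (61.1 ± 15.0) and Vps35 (52.3 ± 10.1). The 6 partners and substrates also all reached it, with 0 of 6 called. The saposin precursor Psap, which cathepsins cut into saposins, stood at 6556, 4627 and 4707 TPM (5297 ± 1091), progranulin (Grn) at 796 ± 151 TPM and the invariant chain Cd74 at 143 ± 25.6 TPM. Macrophage markers had 1 of 11 called, C1qa (5.74, 6.54 and 6.64 log2 CPM; edgeR adjusted p = 0.0155), a subunit of complement C1q that was lowest in library 1; its call was lost without library 1 (adjusted p = 1), without library 3 (0.125) and with a common dispersion (0.174).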

How the data were processed

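Ribosome-depleted total RNA of 3 libraries of 1 group was used. Per the notes deposited with each library, reads were assigned against mm10 with GENCODE M21, separately for each library. The deposited gene and transcript tables of the first quantification give expected counts, TPM, the posterior SD of counts and isoform percent, and the deposited tables of the second give estimated counts and TPM. Their layouts are those of RSEM and kallisto, with tool names, versions and strand setting not given in the sources used here. Expected counts were rounded and tested with edgeR 4.0.16 in R 4.3.3 (filterByExpr, TMM, trended dispersion, chi-square goodness of fit, Benjamini-Hochberg over 12231 genes at 0.05, prior count 0.5). DESeq2 1.42.0 gave alternatives. The step was tested on simulated data. Python 3.11.15, pandas 2.3.3 and Biopython 1.88 did the rest. TPM carry no pseudocount. Detection means 1 TPM in each library. The 26248 rows with number identifiers, all 0, and 97 spike-in and phiX rows were left out. Named were the 10 members and, of each list other than those of cell type markers, the 3 highest genes, each called gene and those at 0. Of the cell type marker lists only some genes were named. Members and lists were chosen with earlier results of these data known. Precursor proteins were compared after translation and global alignment (BLOSUM62, gap opening 10, extension 0.5).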

Additional observations from a re-analysis of the deposited data

How the results depend on the processing

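Settings were changed singly, except that the DESeq2 dispersion trend was used together with the DESeq2 size factors. With fewer libraries the number of genes called between libraries fell from 203 to between 89 and 132, and the number of called members ranged from 0 to 1, being 0 without library 2. It was also 0 with the counts of Ctsd and Gm49369 summed, an alternative added after seeing the data. DESeq2 size factors, alone or with the DESeq2 dispersion trend, a common dispersion, no filter and the second quantification left it at 1, and called 189 to 298 genes. The log2 ratio of Ctsd to Ctsb was 0.43, 0.11 in the second quantification, and 0.32 to 0.57 with a library left out. The Gm49369 share of the locus, 2.57% on average, was 0.344% without library 2. In the second quantification 9 of the 10 levels moved by more than their SD and 0 of the 10 ranks moved; protein-coding genes took 17.6%, 9.84% and 7.91% of TPM there. By mean log2(TPM + 1) Gm49369 moved from rank 6 to rank 9. No paired analysis was possible because there is only 1 group. Ctsk rests on 88 to 123 counts, which limits its precision.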

Other observations

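Fdft1, which encodes squalene synthase and overlaps the 3′ end of Ctsb on the opposite strand over 774 exonic bases (chromosome 14, 63145150 to 63145923, mm10), was called between libraries by edgeR (adjusted p = 0.00634). Its log2 CPM was 4.77, 3.63 and 4.23, highest in library 1 and lowest in library 2. The call was lost without library 1 (adjusted p = 0.463), without library 2 (0.914) and with a common dispersion (0.053). The part of reads from Ctsb in these counts was not tested.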
